A study of Mus musculus with 12 samples.

Results

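The genes described here are 35 histone acetylation genes of the mouse. They were chosen by name from their known function, with earlier results of these data known. They are 11 histone deacetylases (Hdac1 to Hdac11), the 7 sirtuins, 10 acetyltransferases, 3 p160 coactivators, 2 bromodomain readers and 2 enzymes that make acetyl-CoA. All 35 were found in the count tables, which hold 54232 gene IDs, and all 35 passed the filter on low counts along with 17721 genes in all. Bulk RNA was sequenced from eye organoids that had been grown for 7 days from 1 mouse embryonic stem cell line, Rax-GFP ESCs (Rx-GFP K/I EB5 in the study's methods), which is heterozygous for a GFP knock-in at the Rax locus, so that every group has the same genotype. LDHi+lactate organoids were cultured for 3 days in 20 µM GNE-140, which blocks lactate dehydrogenase, together with 25 mM lactate, for which the labels also give a pretreatment of 12 h. LDHi organoids received 20 µM GNE-140 for 3 days without lactate, and control organoids received neither. Each condition has 4 libraries, numbered 1 to 4 in the labels, and the study's methods speak of 4 independent experiments.

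Acetyl groups on histone tails loosen the packing of DNA and serve as docking sites for bromodomain proteins. Acetyltransferases write the mark with acetyl-CoA as donor, deacetylases of the HDAC classes erase it with the help of zinc, and sirtuins erase it with NAD, a cofactor that lactate dehydrogenase also turns over. In the developing eye, class I deacetylases and the acetyltransferases CBP and p300 are known to take part in the differentiation of progenitors. Lactate has been described both as an inhibitor of deacetylases and as a source of acyl marks on histones, neither of which a measurement of transcripts can see.

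The 12 libraries held 22174002 to 48271386 counts in genes, and replicates 3 and 4 of every condition were shallower than replicates 1 and 2. The same replicates 3 and 4 also carry another cell type in the labels, retina progenitors, where replicates 1 and 2 carry eye organoid. Levels are given as CPM (counts per 1000000 of the TMM-scaled library size). Levels of different genes are set side by side only as CPM per kb of exon. That length merges all annotated exons of a gene, so annotated exons that are not transcribed lower the value. Summed over Rax, Six3, Six6, Lhx2, Pax6 and Otx2, markers of the eye field and neural retina reached 727 to 999 CPM in LDHi+lactate libraries, 575 to 645 CPM in LDHi libraries and 758 to 1387 CPM in control libraries, and no marker of this list was at 0. Control replicates 3 and 4 had 1299 and 758 CPM of these markers and control replicates 1 and 2 had 1387 and 1071 CPM, so that the 2 cell type labels were not told apart by them. Libraries with the same replicate number deviated together from their group means across genes (r = 0.329 to 0.634 for 12 pairs, with genes that are not independent). For this reason results are also given with the replicate number in the model, called the block below, wherever that changes a call.

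Transcripts of the 35 genes covered a wide range of levels in these organoids. Acly, the ATP-citrate lyase that makes acetyl-CoA from citrate, had the highest level per length, with 139.7 CPM per kb on average (124 to 159 over the 12 libraries). It was followed by Hat1, which acetylates new histones before they enter chromatin (101 CPM per kb), by the bromodomain reader Brd2 (69.0) and by the class I deacetylase Hdac2 (68.9). Acss2, which makes acetyl-CoA from acetate, was far below Acly at 3.11 CPM per kb. Among class I deacetylases, Hdac2 lay above Hdac3 (29.9), Hdac1 (10.4) and Hdac8 (3.86 CPM per kb), and the ranges of these 4 genes over the 12 libraries did not overlap. Hdac1 and Hdac2 are close paralogs that share the same complexes, and here Hdac2 had the higher count per length. Whether reads of either gene were lost to similar sequences elsewhere in the genome was not tested.

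Class IIa deacetylases shuttle between cytoplasm and nucleus and repress MEF2 factors. Hdac5 was the most abundant of them at 14.0 CPM per kb, Hdac7 had 7.05, Hdac4 2.85 and Hdac9 0.574 CPM per kb, the lowest level of all 35 genes. Of the writers, Kat2a, which encodes GCN5, had 43.8 CPM per kb and its paralog Kat2b, which encodes PCAF, 4.49. Ep300 had 15.4 and Crebbp 5.52 CPM per kb, with no overlap between their ranges (12.5 to 17.7 and 3.25 to 7.51). Kat7, a writer that works with the origin recognition machinery, was the most abundant MYST acetyltransferase (33.8) and Kat6b the least (7.39 CPM per kb). The NAD-dependent Sirt1 and Sirt2 led the sirtuins (14.7 and 13.6 CPM per kb), and the mitochondrial Sirt3, Sirt4 and Sirt5 stayed at 2.29, 2.22 and 1.48. The cytoplasmic deacetylase Hdac6 had 32.6, Hdac10 3.78 and the class IV Hdac11 6.01 CPM per kb. The coactivators Ncoa3, Ncoa2 and Ncoa1 had 17.9, 8.58 and 3.82 CPM per kb.

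**Figure D1:**
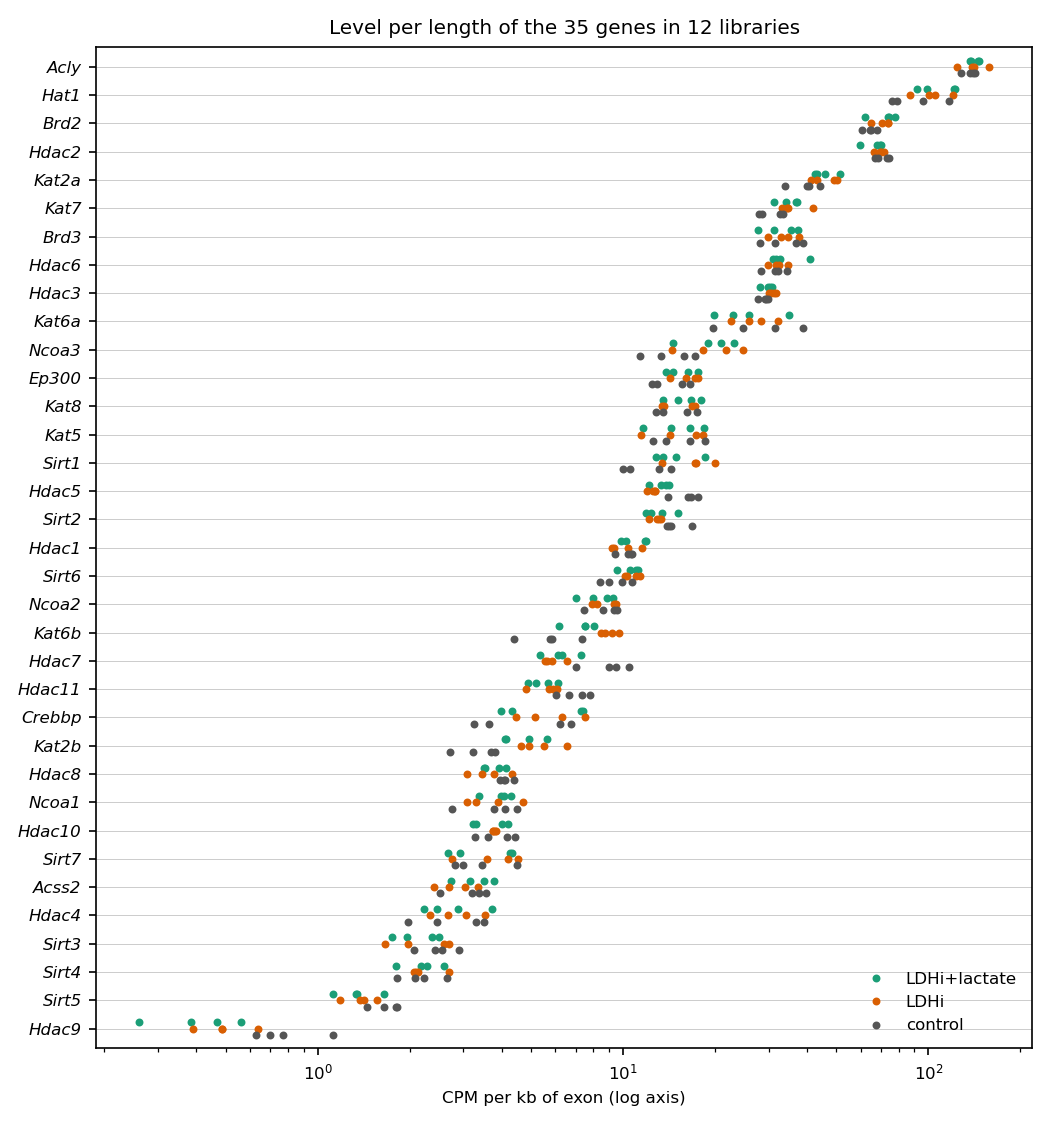
Level per length of the 35 genes, with CPM per kb of exon on a log axis and genes ordered by their mean, for 4 LDHi+lactate, 4 LDHi and 4 control libraries (1 point each). Acly lies at 124 to 159 CPM per kb and Hdac9 at 0.260 to 1.12, and for most genes the 3 conditions overlap.

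The first question was what inhibition of lactate dehydrogenase did to these transcripts. LDHi organoids had less Hdac5 and Hdac7 and more Kat2b and Kat6b than control organoids, that is, less of 2 class IIa deacetylases and more of 2 acetyltransferases. These 4 of 35 genes (11.4%) were called by edgeR's quasi-likelihood test at an adjusted p under 0.05, against 3.09% of all genes tested (0.909% higher and 2.18% lower). With the replicate block 12 of 35 (34.3%) were called, against 19.9% of all genes (9.85% higher and 10.1% lower): 7 were higher in LDHi (Sirt1, Crebbp, Kat2a, Kat2b, Kat6b, Kat7 and Ncoa3) and 5 were lower (Hdac5, Hdac7, Hdac9, Hdac11 and Sirt2). DESeq2 also called 4 of 35, against 6.75% of all genes, and 12 of 35 with the block, against 20.5%. The changes were small. The median size of the log2 fold change was 0.158 over the 35 genes and 0.190 over all genes tested, and the signed medians were 0.021 and 0.0086. The LDHi and control libraries did not overlap for 6 of the 35 genes, against 9.67% of all genes. The 6 were Hdac3, Hdac5, Hdac7, Sirt2, Kat2b and Kat6b.

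**Figure D2:**
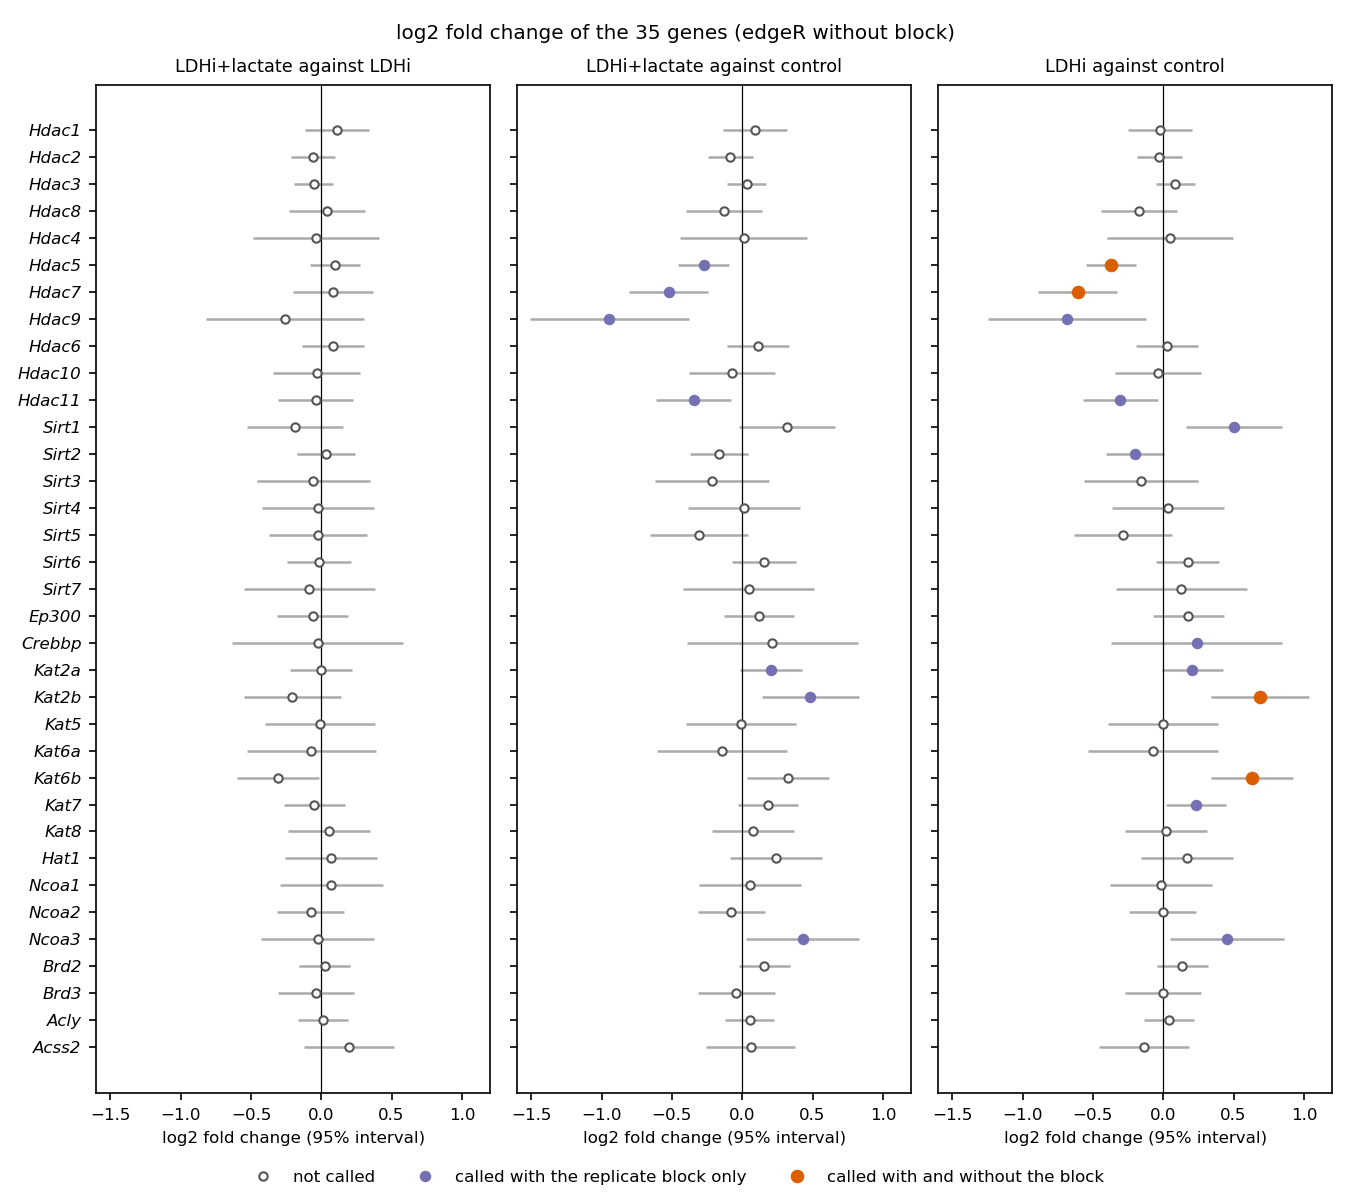
log2 fold change (horizontal axis, with its 95% interval from edgeR without the block) of each of the 35 genes in LDHi+lactate against LDHi, LDHi+lactate against control and LDHi against control. Filled points mark calls at an adjusted p under 0.05, in the order of the panels 0, 0 and 4 without the block and 0, 7 and 12 with it.

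Hdac7 is a class IIa deacetylase best known from endothelial cells and thymocytes. It had 49.1, 36.0, 42.6 and 41.3 CPM in LDHi+lactate libraries, 44.2, 38.1, 37.6 and 39.5 CPM in LDHi libraries and 70.8, 47.4, 60.9 and 64.2 CPM in control libraries (replicates 1 to 4 in this order, here and below). All LDHi libraries lay below all control libraries, and Hdac7 was 34.4% lower (log2 fold change -0.61, SE 0.130, adjusted p = 0.0288 by edgeR). Hdac5, which is known for its export from the nucleus by calcium-dependent kinases, had 122, 107, 117 and 124 CPM in LDHi+lactate libraries, 110.3, 111, 105 and 112 CPM in LDHi libraries and 144, 123, 154 and 147 CPM in control libraries. The 4 LDHi libraries were within a narrow band below every control library, a difference of 22.7% (log2 fold change -0.37, SE 0.0832, adjusted p = 0.0331 by edgeR). The two-sided exact permutation test gave p = 0.0286 for either gene, the smallest value that 4 against 4 libraries allow. Groups that do not overlap always give this value, so it adds no further support.

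Hdac9, the third of the 3 class IIa genes that were lower, has the lowest level per length of all members. It had 6.85, 3.81, 5.63 and 8.21 CPM in LDHi+lactate libraries, 7.11, 5.73, 7.14 and 9.33 CPM in LDHi libraries and 11.3, 9.23, 16.4 and 10.2 CPM in control libraries. LDHi replicate 4 and control replicate 2 overlapped, yet LDHi was lower in 4 of 4 replicates. The call was made only with the block (log2 fold change -0.69, SE 0.189, adjusted p = 0.0271 by edgeR), and without it the adjusted p was 0.191. Hdac4, the remaining class IIa gene, had a log2 fold change of 0.046 (95% interval -0.40 to 0.50) and an adjusted p of 0.958 (edgeR). Hdac11, the only class IV deacetylase, had 23.5, 18.8, 20.04 and 21.8 CPM in LDHi+lactate libraries, 22.1, 18.5, 22.6 and 23.5 CPM in LDHi libraries and 29.9, 23.2, 25.7 and 28.2 CPM in control libraries. It was lower in 4 of 4 replicates, with a call only in the blocked fit (log2 fold change -0.30, SE 0.0725, adjusted p = 0.0149 by edgeR, against an adjusted p of 0.229 without the block). Without replicate 1, 2 or 3 the blocked call of Hdac9 was lost (adjusted p up to 0.125), and that of Hdac11 was lost without replicate 1, 2 or 4 (up to 0.108).

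Summed over the 4 class IIa genes the level was 21.8 ± 0.87 CPM per kb in LDHi and 28.8 ± 3.45 CPM per kb in control (SD, n = 4 each), while the 4 class I genes summed to 114.0 ± 1.98 CPM per kb in LDHi and 114.2 ± 2.77 CPM per kb in control. Markers of the eye field and neural retina, of mesenchyme and of pigment epithelium were lower in the same LDHi libraries. The 6 eye field and neural retina markers summed to 575 to 645 CPM in LDHi and 758 to 1387 CPM in control libraries. Of them 3 were called lower, and all 6 with the block. The 8 markers of mesenchyme and smooth muscle, which include Col1a1, Twist1 and Acta2, summed to 35.04 to 51.9 CPM in LDHi and 100.5 to 771 CPM in control libraries, with 4 of 8 called lower and 8 of 8 with the block. The 5 pigment epithelium markers summed to 19.4 to 158 CPM in LDHi and 142 to 925 CPM in control libraries, with 2 of 5 called lower and 5 of 5 with the block. Early neuron markers summed to 206 to 819 CPM in LDHi and 137 to 846 CPM in control libraries. Endoderm markers had 57.7 to 130 CPM in LDHi and 29.6 to 136 CPM in control libraries. Telencephalon markers had 384 to 602 CPM in LDHi and 350 to 435 CPM in control libraries. No gene of these last lists was called lower in either fit. The part of any of these tissues in the lower levels of Hdac5, Hdac7, Hdac9 and Hdac11 was not tested. In bulk RNA, fewer cells of a type and less RNA per cell cannot be told apart.

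**Figure D3:**
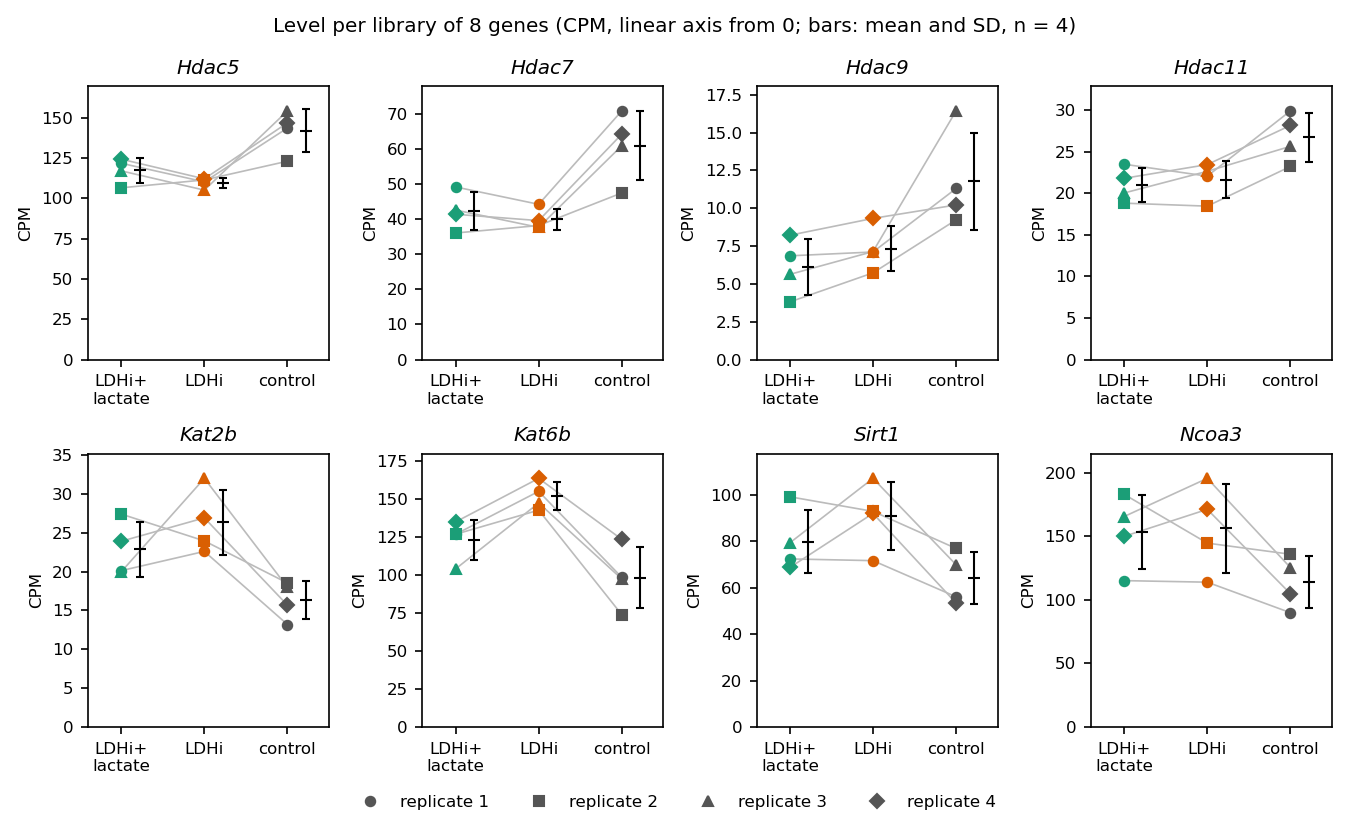
CPM (vertical axis from 0) of Hdac5, Hdac7, Hdac9, Hdac11, Kat2b, Kat6b, Sirt1 and Ncoa3 in LDHi+lactate, LDHi and control libraries. Each symbol is 1 library, grey lines join libraries of the same replicate number, and bars give the mean and SD (n = 4). In LDHi, Hdac7 lies at 37.6 to 44.2 CPM, below the 47.4 to 70.8 CPM of control, and Kat6b at 143 to 163 CPM, above the 73.8 to 123 CPM of control.

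Of the 35 genes Kat2b had the largest increase in LDHi over control. PCAF, its product, acetylates histone H3 as part of SAGA-type complexes and shares this role with GCN5. Kat2b had 20.1, 27.4, 19.97 and 23.9 CPM in LDHi+lactate libraries, 22.6, 23.9, 32.0 and 26.9 CPM in LDHi libraries and 13.2, 18.5, 18.0 and 15.7 CPM in control libraries. All 4 LDHi libraries lay above all 4 control libraries, and the level was 1.61-fold higher (log2 fold change 0.69, SE 0.160, adjusted p = 0.0376 by edgeR). Its more abundant paralog Kat2a had 151, 179, 159.985 and 148 CPM in LDHi+lactate libraries, 149.7, 171, 174 and 144 CPM in LDHi libraries and 139.7, 154, 141 and 118 CPM in control libraries. LDHi was higher in 4 of 4 replicates but the groups overlapped, and Kat2a was called only with the block (log2 fold change 0.21, SE 0.0503, adjusted p = 0.0159 by edgeR, against an adjusted p of 0.335 without it), a call that was lost without replicate 3 or 4 (adjusted p up to 0.11).

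Kat6b encodes a MYST acetyltransferase whose loss in humans causes developmental syndromes that include the face and brain. It had 127, 127, 104 and 135 CPM in LDHi+lactate libraries, 155, 143, 147 and 163 CPM in LDHi libraries and 98.3, 73.8, 97.3 and 123 CPM in control libraries. LDHi exceeded control in 4 of 4 replicates without overlap, by 1.55-fold (log2 fold change 0.63, SE 0.135, adjusted p = 0.0288 by edgeR). Its paralog Kat6a had a log2 fold change of -0.073 (95% interval -0.53 to 0.39). Kat7 had 173, 205, 204 and 189 CPM in LDHi+lactate libraries, 183, 192, 232 and 191 CPM in LDHi libraries and 158, 181, 184 and 154 CPM in control libraries, and was called higher only with the block (log2 fold change 0.23, SE 0.0539, adjusted p = 0.0133 by edgeR, against 0.251 without it), which was lost without replicate 1, 3 or 4 (adjusted p up to 0.0892). Kat5 and Kat8 had log2 fold changes of -0.0043 (95% interval -0.40 to 0.39) and 0.021 (95% interval -0.27 to 0.31). Reads of Kat5 and Kat8 cannot be separated with certainty from Rnaseh2c and Prss8, which share 426 and 122 exonic bases with them on the other strand, since the sources used here do not say whether counting used strand.

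Sirt1, a nuclear sirtuin that deacetylates histones and transcription factors, had 72.3, 99.0, 79.2 and 68.6 CPM in LDHi+lactate libraries, 71.6, 92.7, 107 and 91.9 CPM in LDHi libraries and 56.0, 76.8, 69.8 and 53.3 CPM in control libraries. It was 1.42-fold higher in LDHi in 4 of 4 replicates, with overlapping groups, and was called with the block (log2 fold change 0.51, SE 0.0926, adjusted p = 0.00409 by edgeR) but not without it (adjusted p = 0.115). Sirt2, which is mostly cytoplasmic, had 76.3, 62.0, 67.3 and 59.7 CPM in LDHi+lactate libraries, 67.2, 66.1, 61.0 and 65.0 CPM in LDHi libraries and 84.5, 70.3, 71.2 and 72.1 CPM in control libraries. It was lower in 4 of 4 replicates and the groups did not overlap, although the nearest libraries lay at 67.2 and 70.3 CPM. The call of Sirt2 was made with the block only (log2 fold change -0.20, SE 0.0613, adjusted p = 0.0467 by edgeR, 0.32 without it), and leaving out any one of the 4 replicates ended it (adjusted p 0.0568 to 0.226). Sirt2 shares 42 exonic bases with Nfkbib on the other strand. Of the other sirtuins, the log2 fold changes were -0.16 for Sirt3, 0.036 for Sirt4, -0.28 for Sirt5, 0.17 for Sirt6 and 0.13 for Sirt7, none of them called in either fit.

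Ncoa3, a p160 coactivator of nuclear receptors that recruits CBP and p300 and is active in pluripotent cells, had 115, 183, 166 and 149.9 CPM in LDHi+lactate libraries, 114, 145, 196 and 171 CPM in LDHi libraries and 89.9, 136, 125 and 105 CPM in control libraries. LDHi was higher in 4 of 4 replicates, and replicate 3 had the highest LDHi level. The gene was called with the block (log2 fold change 0.45, SE 0.0940, adjusted p = 0.00829 by edgeR) and not without it (adjusted p = 0.234). The blocked call was lost without replicate 3 or without replicate 4 (adjusted p up to 0.0617). Ncoa3 shares 154 exonic bases with Sulf2 on the other strand, a gene with more counts. Ncoa1 and Ncoa2 had log2 fold changes of -0.015 (95% interval -0.38 to 0.35) and -0.0054 (95% interval -0.24 to 0.23).

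Transcripts of pluripotent cells were higher in LDHi than in control libraries. Pou5f1, Nanog, Esrrb, Zfp42, Tdgf1 and Fgf4 summed to 351 to 775 CPM in LDHi+lactate, 421 to 792 CPM in LDHi and 161 to 342 CPM in control libraries, with 3 of 6 called higher in LDHi than in control and 6 of 6 with the block. Within LDHi+lactate, LDHi and control, replicates 2, 3 and 2 had the highest sum in their condition. Hdac1, Sirt1, Kat2a, Kat2b and Ncoa3 each had their own highest level in the same library in all 3 conditions, which is 5 of 35 genes (14.3%) and was so for 5.78% of all genes tested. For the mesenchyme sum, replicate 4 was highest in each condition, and Sirt4, Kat6a, Kat6b, Brd3 and Acss2 peaked there too (14.3%, against 7.96% of all genes). For the telencephalon sum it was replicate 1 in each condition, where Hdac7, Sirt2, Sirt3 and Sirt5 were highest as well (11.4%, against 7.48%). Hdac11 peaked in the same libraries as the pigment epithelium sum, Acly as the early neuron sum and Kat8 as the endoderm sum (2.86% each, against 1.03%, 4.6% and 10.7% of all genes), and no member did so for the eye field and neural retina sum (0.587%). Their part in the differences between conditions was not tested.

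For the 4 genes called without the block, the 250 bases before the transcription start are shown so that their composition can be compared. They are RefSeq windows of GRCm38.p6, which listed 29 of the 35 genes, and the window nearest to the annotated 5′ end of the gene was taken where there were several. Capitals mark matches, on either strand, to the GC box, spelled GGGCGG, to the CCAAT box, spelled as its name, to the E-box with the letters CACGTG, to the cAMP response element TGACGTCA or to CTATTTTTA, a core bound by MEF2 factors. Lower in LDHi were Hdac7 (chr15:97844503-97844752, minus strand) and Hdac5 (chr11:102230173-102230422, minus strand). Higher in LDHi were Kat6b (chr14:21499520-21499769, plus strand, a start 18336 bases inside the annotated gene) and Kat2b (chr17:53566721-53566970, plus strand, a start 110 bases inside the annotated gene).
Hdac7: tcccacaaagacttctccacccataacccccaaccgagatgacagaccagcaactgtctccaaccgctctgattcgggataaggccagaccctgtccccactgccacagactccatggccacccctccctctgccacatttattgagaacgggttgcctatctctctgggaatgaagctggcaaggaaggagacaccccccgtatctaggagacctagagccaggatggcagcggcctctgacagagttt
Hdac5: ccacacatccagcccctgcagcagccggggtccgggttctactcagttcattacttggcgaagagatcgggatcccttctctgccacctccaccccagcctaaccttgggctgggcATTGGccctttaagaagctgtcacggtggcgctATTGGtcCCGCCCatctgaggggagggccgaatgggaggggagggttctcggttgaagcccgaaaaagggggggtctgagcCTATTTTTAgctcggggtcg
Kat6b: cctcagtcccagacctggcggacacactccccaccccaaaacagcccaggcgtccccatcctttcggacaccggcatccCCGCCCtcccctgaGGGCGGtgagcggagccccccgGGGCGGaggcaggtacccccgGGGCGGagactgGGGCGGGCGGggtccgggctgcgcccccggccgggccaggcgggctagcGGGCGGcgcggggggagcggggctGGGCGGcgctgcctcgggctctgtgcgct
Kat2b: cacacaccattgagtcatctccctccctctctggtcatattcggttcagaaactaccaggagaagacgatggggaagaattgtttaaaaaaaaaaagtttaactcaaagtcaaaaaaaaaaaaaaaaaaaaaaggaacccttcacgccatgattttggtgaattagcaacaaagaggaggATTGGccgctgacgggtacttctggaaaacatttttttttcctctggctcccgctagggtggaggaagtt

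The 4 windows had little in common. The window of Kat6b was rich in G and C (78.8%) and held 8 GC boxes, 2 of which overlap, where 32.7% of the 32851 windows in the table hold at least 1. Hdac5 had 60.8% G and C, 1 GC box, 2 CCAAT boxes and 1 match to the MEF2 core at 20 to 12 bases before the start. That core is present in 0.454% of all windows and a CCAAT box in 33.8%. The motifs were chosen after the sequences had been read, so such shares do not test the matches. Kat2b had 40.8% G and C and 1 CCAAT box, and Hdac7 had 56.4% G and C and no match. None of the 4 held an E-box or a cAMP response element, which occur in 6.02% and 1.55% of all windows. A match is a run of letters and says nothing of binding in these organoids.

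The class I deacetylases, which sit in the large nuclear corepressor complexes, gave no call in either fit. Hdac1 had 33.9, 41.0, 40.6 and 35.4 CPM in LDHi+lactate libraries, 31.6, 35.9, 39.8 and 32.1 CPM in LDHi libraries and 35.7, 36.9, 36.5 and 32.5 CPM in control libraries. Hdac2 had 304, 266, 312 and 311 CPM in LDHi+lactate libraries, 309.8, 298, 321 and 314 CPM in LDHi libraries and 305, 300.2, 329 and 332 CPM in control libraries. Hdac3 had 123, 114, 125 and 121 CPM in LDHi+lactate libraries, 126, 128, 124 and 122 CPM in LDHi libraries and 119, 121, 118 and 112 CPM in control libraries. Hdac1 and Hdac2 overlapped between LDHi and control, with log2 fold changes of -0.022 (95% interval -0.25 to 0.21) and -0.027 (95% interval -0.19 to 0.13), and Hdac3 was higher in all 4 LDHi libraries by 0.086 on the log2 scale (95% interval -0.052 to 0.22, adjusted p = 0.581 by edgeR, and 0.225 with the block). Hdac8 had a log2 fold change of -0.17 (95% interval -0.44 to 0.10).

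The paralogous acetyltransferases p300 and CBP, which write much of the acetylation at enhancers, were not called without the block. Ep300 had 198, 208, 234 and 251 CPM in LDHi+lactate libraries, 245, 203, 229 and 252 CPM in LDHi libraries and 184, 178, 237 and 222 CPM in control libraries. The log2 fold change was 0.18 (95% interval -0.071 to 0.43) for LDHi against control, and the gene was not called (adjusted p = 0.508 by edgeR and 0.0885 with the block). Crebbp had 53.8, 58.5, 100.3 and 98.7 CPM in LDHi+lactate libraries, 69.5, 60.4, 85.2 and 102 CPM in LDHi libraries and 49.1, 44.0, 84.1 and 91.4 CPM in control libraries. In every condition replicates 3 and 4 lay above replicates 1 and 2, so that the spread within a condition exceeded the difference between conditions. The block removes that spread, and with it Crebbp was called higher in LDHi (log2 fold change 0.29, SE 0.0902, adjusted p = 0.048 by edgeR, against 0.777 without the block), a call that ended without replicate 1, 2 or 4 (adjusted p up to 0.19).

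No call was made in either fit among the genes that make acetyl-CoA or read the mark. Acly had 771, 725, 728 and 769.7 CPM in LDHi+lactate libraries, 837, 732, 657 and 744 CPM in LDHi libraries and 739, 722, 675 and 750.5 CPM in control libraries, with a log2 fold change of 0.041 (95% interval -0.13 to 0.22). Acss2 had a log2 fold change of -0.14 (95% interval -0.46 to 0.18), lower in 4 of 4 replicates and not called in either fit (adjusted p = 0.751 and 0.219 by edgeR). Parts of its exons overlap Gss, Ggt7 and an antisense RNA. Brd2 and Brd3, BET proteins that bind acetylated histones, had log2 fold changes of 0.13 (95% interval -0.047 to 0.32) and -0.0043 (95% interval -0.28 to 0.27). Brd2 was higher in 4 of 4 replicates, with an adjusted p of 0.488 (edgeR) and of 0.0665 with the block. Hat1 had 0.17 (95% interval -0.16 to 0.49), Hdac6 0.027 (95% interval -0.19 to 0.25) and Hdac10 -0.037 (95% interval -0.34 to 0.27) on the same scale.

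**Figure D4:**
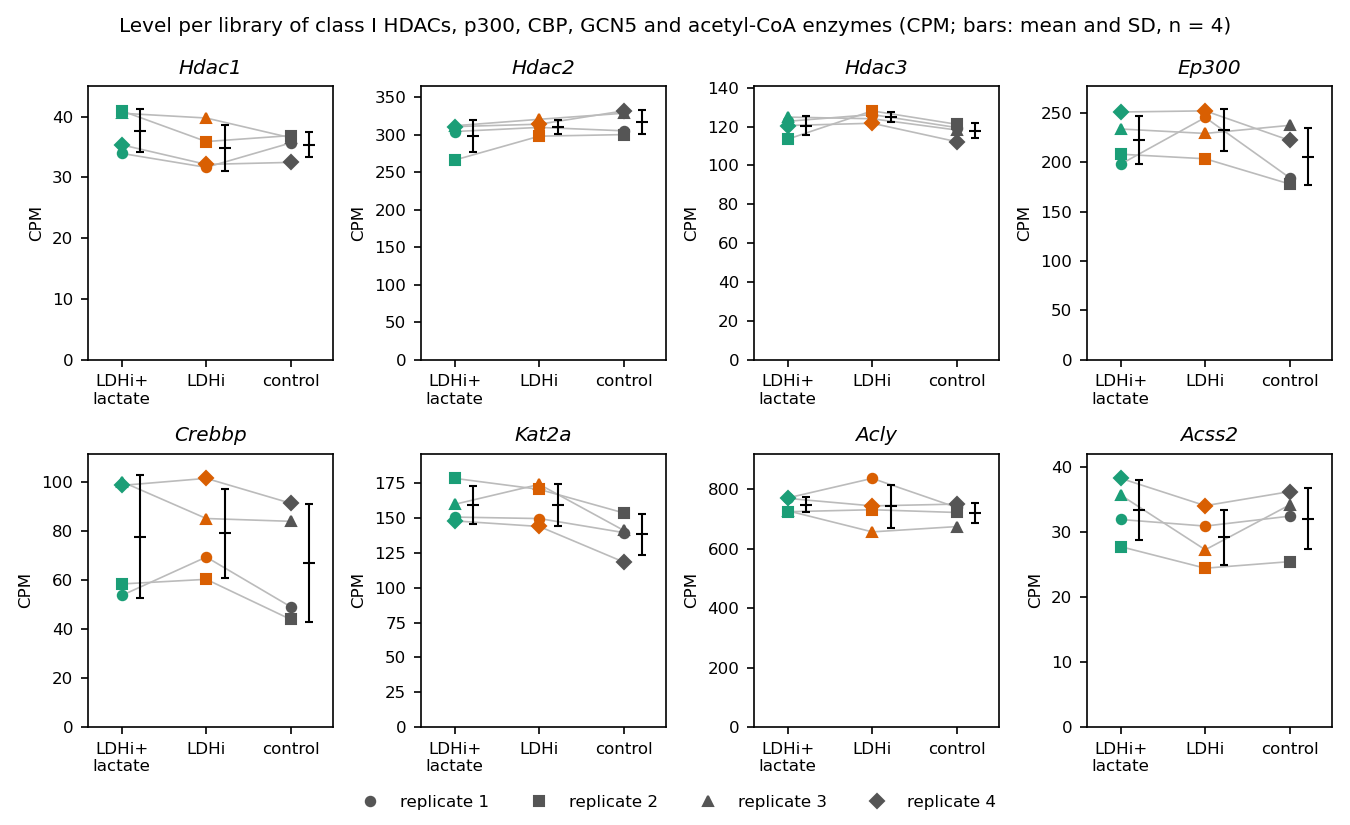
CPM (vertical axis from 0) of Hdac1, Hdac2, Hdac3, Ep300, Crebbp, Kat2a, Acly and Acss2 in LDHi+lactate, LDHi and control libraries. Each symbol is 1 library, grey lines join libraries of the same replicate number, and bars give the mean and SD (n = 4). Hdac2 lies at 266 to 332 CPM in all 12 libraries, and Crebbp splits by replicate number, with replicates 3 and 4 at 84.1 to 102 CPM and replicates 1 and 2 at 44.0 to 69.5 CPM.

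The 4 calls were also read within the pairs of replicates that share a cell type label. Hdac7 had a log2 fold change of -0.71 in replicates 3 and 4 alone and -0.52 in replicates 1 and 2 alone. Hdac5 had -0.49 and -0.27, Kat2b 0.79 and 0.55, and Kat6b 0.48 and 0.79 in the same order. The direction was the same in either pair, as it had to be for genes whose LDHi and control libraries do not overlap. No gene of the 35 was called with 2 libraries a group. A different effect of LDHi in the 2 pairs was tested as an interaction, which called none of the 35 and none of 17721 genes (694 genes at an unadjusted p under 0.05, among them Crebbp). Leaving out single libraries left 0 to 4 of the 35 genes called: removing control library 1 or 3, or LDHi library 2, 3 or 4, ended all 4 calls, removing control library 4 left 1, Kat6b, and removing LDHi library 1 left 2, Hdac7 and Kat2b. Removing LDHi+lactate library 4, which is outside the comparison but shares in the estimate of spread, ended the call of Kat2b (adjusted p = 0.057 by edgeR) and left 3. In the blocked model Hdac5, Hdac7, Kat2b and Kat6b were called in each of the 4 fits that leave out 1 replicate number, and so was Sirt1, while the blocked count of 12 became 7 without replicate 1 and 6 without replicate 4. Only LDHi and control in the fit, in place of all 12 libraries, gave 0 calls among the 35, with adjusted p of 0.0529 for Hdac7, 0.0593 for Kat6b, 0.0678 for Kat2b and 0.0685 for Hdac5.

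The next question was whether lactate, given together with the inhibitor, moved these transcripts. The LDHi libraries here are those of the first comparison, so a chance deviation in them enters both comparisons with opposite signs. An opposite sign here is therefore not independent of the first comparison. No member was called for LDHi+lactate against LDHi, and no gene of the 17721 was called either (edgeR without the block, with 603 genes and 1 member at an unadjusted p under 0.05). DESeq2 called 0 members and 0.305% of all genes, and with the block 0 members and 3.14%. With the replicate block the calls were 0 of 35 genes, against 0.638% of all genes, and 2 members (Kat6b and Acss2) had an unadjusted p under 0.05. The median size of the log2 fold change was 0.054 over the 35 genes and 0.106 over all genes.

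Kat6b came nearest to a difference. Its level was 123 ± 13.3 CPM in LDHi+lactate, 152 ± 9.14 CPM in LDHi and 98.2 ± 20.2 CPM in control (SD, n = 4 each). All 4 LDHi+lactate libraries lay below all 4 LDHi libraries, as was so for 2.1% of all genes, with a log2 fold change of -0.31 (95% interval -0.60 to -0.013). The exact permutation test of this gene alone gave p = 0.0286, as it must where groups do not overlap. The adjusted p over all genes was 0.239 with the block (edgeR), or 0.0168 with the block and no filter on low counts. Acss2 was higher with lactate in 4 of 4 replicates, with a log2 fold change of 0.20 (95% interval -0.12 to 0.51) and an adjusted p of 0.318 with the block. For the class IIa genes the log2 fold changes with lactate were 0.10 (95% interval -0.083 to 0.28) for Hdac5, 0.084 (95% interval -0.20 to 0.37) for Hdac7 and -0.26 (95% interval -0.82 to 0.31) for Hdac9. For Kat2b, Sirt1 and Ncoa3 they were -0.21 (95% interval -0.55 to 0.14), -0.19 (95% interval -0.53 to 0.16) and -0.027 (95% interval -0.43 to 0.38).

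LDHi+lactate organoids were also compared with control organoids, whose libraries are those of the first comparison. Without the block 0 of the 35 genes and 0 of all genes were called by edgeR, although 7 members and 1653 genes had an unadjusted p under 0.05. By DESeq2 Hdac7 and Hdac9 were lower (2 of 35, against 1.32% of all genes, and 12 of 35 against 15.3% with the block). For Hdac9 and Kat2b the libraries did not overlap, which was so for 4.23% of all genes. With the block 7 of 35 genes (20%) were called, against 8.05% of all genes. Hdac5, Hdac7, Hdac9 and Hdac11 were lower in LDHi+lactate than in control, as were 3.87% of all genes, and Kat2a, Kat2b and Ncoa3 were higher, as were 4.18%. The class IIa sum was 22.9 ± 1.95 CPM per kb in LDHi+lactate and 28.8 ± 3.45 CPM per kb in control (SD, n = 4 each).

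Side by side, the 2 comparisons with control gave the following values. Hdac7 had a log2 fold change of -0.52 in LDHi+lactate and -0.61 in LDHi. Hdac5 had -0.27 and -0.37, Hdac9 -0.94 and -0.69, and Hdac11 -0.35 and -0.31. Among the higher genes Kat2b had 0.48 in LDHi+lactate and 0.69 in LDHi, Ncoa3 had 0.43 and 0.46, and Kat2a had 0.20 and 0.21. Kat6b and Sirt1 had 0.33 and 0.32 in LDHi+lactate, with adjusted p of 0.0587 for both with the block (edgeR). Mesenchyme and smooth muscle markers summed to 54.7 to 93.3 CPM in LDHi+lactate and 100.5 to 771 CPM in control, and pluripotent markers to 351 to 775 CPM in LDHi+lactate and 161 to 342 CPM in control. Their part in these values was not tested. The 7 blocked calls rested on the full set of replicates, since 0 of the 35 genes were called without replicate 1, 4 without replicate 2 and 2 without replicate 3 or replicate 4, and only Hdac7 was called in 3 of these 4 fits.

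Genes that work together with the 35 were taken from lists chosen by function, with earlier results of these data known. Their counts stand against the shares of all genes in LDHi against control (0.909% higher and 2.18% lower by edgeR). With the block these shares were 9.85% and 10.1%. Of 42 subunits of acetyltransferase complexes, 1 was called higher and 0 lower in LDHi than in control, and 11 higher and 0 lower with the block (edgeR, with 2 called by DESeq2 without the block). Brpf3, a scaffold of the KAT7 complex, was higher (log2 fold change 0.42, SE 0.0704, adjusted p = 0.0133 by edgeR), and the blocked calls include Jade1 (log2 fold change 0.54) and Tada3 (0.28). Of 31 partners of class I deacetylases 0 were called by edgeR or DESeq2 without the block, although 3 had an unadjusted p under 0.05 in edgeR, and 6 were higher and 1 lower with the block. Of 28 other readers of acetylated lysine 2 were called by DESeq2 and 0 by edgeR without the block, where 5 had an unadjusted p under 0.05. With the block 7 were higher and 2 lower (edgeR), among them Trim28 (0.31) and the muscle-linked BAF subunit Dpf3 (-1.14). Among 12 other acetyltransferases Esco2, which acetylates cohesin and not histones, was higher (log2 fold change 0.53, SE 0.122, adjusted p = 0.0358 by edgeR), a call that was lost on removing any of control libraries 1, 3 and 4, LDHi libraries 2, 3 and 4, and LDHi+lactate library 4 (adjusted p up to 0.129).

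Acetyl-CoA can also come from ketone bodies, acetate and fatty acids. Of 16 further sources and carriers of acetyl-CoA 15 were tested. By edgeR 1 was called lower, against 2.18% of all genes, and 2 with the block, against 10.1%, and none was called higher in either fit. Acat1, the mitochondrial thiolase of ketone body use, was lower in LDHi with 40.4, 43.1, 37.1 and 42.2 CPM in LDHi libraries, against 68.8, 65.6, 58.9 and 59.3 CPM in control libraries (log2 fold change -0.63, SE 0.0876, adjusted p = 0.00907 by edgeR). This call held when each of the 12 libraries was left out (adjusted p 0.00899 to 0.0338). With the block Acss3, a propionyl-CoA synthetase, was lower as well (log2 fold change -1.22, SE 0.237, adjusted p = 0.0057 by edgeR). Lipid synthesis spends acetyl-CoA from Acly, and of 18 genes under SREBP factors 0 were called by edgeR or DESeq2 without the block, with 4 at an unadjusted p under 0.05 in edgeR. With the block 5 of the 18 were higher, against 9.85% of all genes (edgeR), with log2 fold changes of 0.33 for Fasn, 0.27 for Sqle and 0.22 for Elovl6. For LDHi+lactate against LDHi edgeR called 0 genes of these 6 lists with or without the block, with 0 genes at an unadjusted p under 0.05 without the block and 0 to 8 a list with it. DESeq2 called 0 of them without the block and 2 of the other readers with it.

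By the calls of edgeR, replicate number separated the 35 genes about as often as it separated other genes. Replicates 3 and 4 differed from replicates 1 and 2 for 9 of 35 genes (25.7%), against 27.9% of all genes tested (13.7% higher and 14.3% lower, by edgeR with condition as a term). The libraries of 7 of the 35 genes did not overlap between the sets, against 12.3% of all genes. Crebbp (log2 fold change 0.76), Hdac4 (0.50), Kat6a (0.45), Brd3 (0.29) and Ep300 (0.23) were higher in replicates 3 and 4, and Sirt7 (-0.51), Kat5 (-0.44), Sirt3 (-0.40) and Kat8 (-0.32) were lower. The genes that were higher had exonic lengths of 7336 to 15813 bases and those that were lower of 2891 to 5973 bases. Over all genes the median exonic length was 6248 bases for those higher, 3104 for those lower and 3754 for those not called. Depth, the cell type label and the replicate number change together between these libraries and cannot be told apart.

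Each of the 4 genes that were lower in replicates 3 and 4 overlaps a neighbour, Sirt7 with Mafg, Kat5 with Rnaseh2c, Sirt3 with Ric8a and Psmd13, and Kat8 with Prss8. Such overlaps are not particular to these genes. Hdac4, Ep300 and Brd3, which were higher, overlap neighbours with 0, 0 and 2 counts over the 12 libraries. Ncoa3, Sirt2 and Acss2, which were not called between the sets, overlap neighbours that were counted. Sirt3 held 5969 counts over the 12 libraries and Psmd13, with which it shares 342 exonic bases, held 81012. Of the genes that changed with LDHi, Hdac7 shares 29 exonic bases with Slc48a1.

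**Figure D5:**
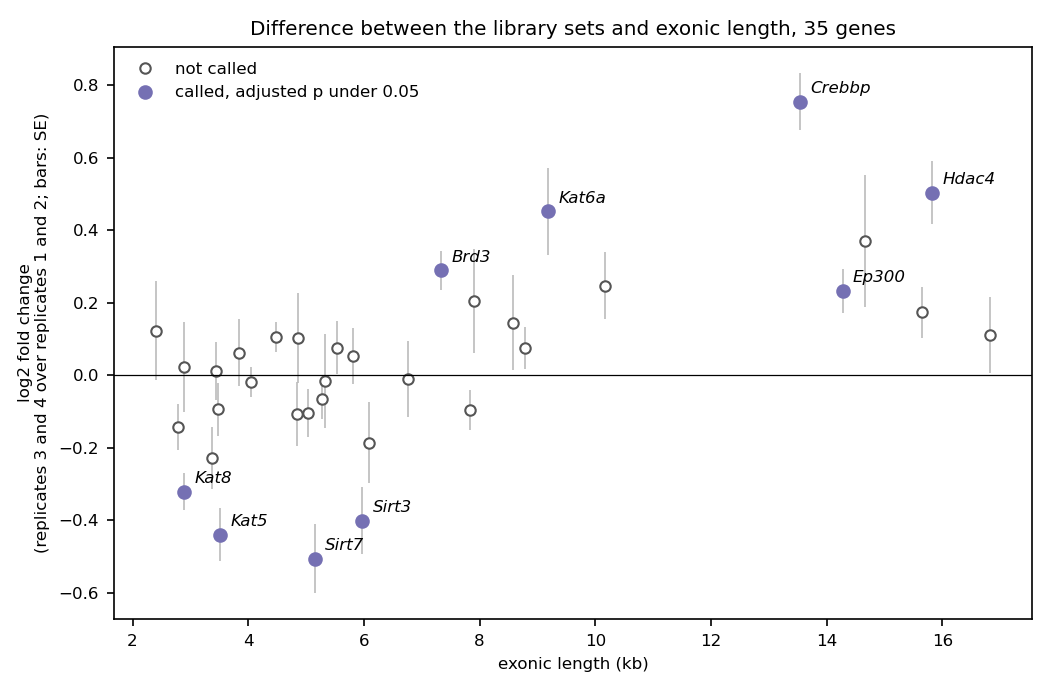
Difference between replicates 3 and 4 and replicates 1 and 2 (vertical axis, log2 fold change with its SE, positive where replicates 3 and 4 are higher) against exonic length in kb (horizontal axis) for the 35 genes, with filled points for the 9 called. Crebbp, with 13540 exonic bases, has the largest increase of the 35 (0.76) and Sirt7, with 5148, the largest decrease (-0.51).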

How the data were processed

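The authors deposited raw counts of reads per Ensembl gene for each of 12 libraries (RNeasy Mini, TruSeq mRNA, Illumina single reads), with no normalization. The submitters' processing notes name cutadapt 1.13, STAR, HTSeq 0.6.1p1, DESeq2 1.14.1 and the build mm10. Not given in the sources used here are the STAR version, which annotation was counted and whether strand was used. GENCODE vM21 gave symbols, positions and exonic lengths for 54165 of 54232 gene IDs (99.9%). Total counts were 29255114 to 42489921 in LDHi+lactate, 22174002 to 46881759 in LDHi and 25209097 to 48271386 in control libraries, and no library repeated another.

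Counts were tested with edgeR 4.0.16 in R 4.3.3 (TMM, filterByExpr, quasi-likelihood, all 12 libraries, no block), with Benjamini-Hochberg adjustment over 17721 genes and calls at an adjusted p under 0.05. The replicate number was also fitted as a block. Libraries of the same number correlated at 0.329 to 0.634 in their deviations, above 0.1 for all 12 pairs, against -0.220 to 0.197 for other numbers of the same label and -0.544 to 0.171 across labels. Pairing therefore comes from the data and not from a label. For single genes an exact permutation test (two-sided, smallest p 0.0286) was added. If replicates are not separate cultures, p-values measure technical spread only. DESeq2 1.42.0, other scalings, filters and samples were alternatives, and those that combine the block with another setting were added after the data were seen. The edgeR step was tested on simulated data.

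The members and lists were chosen with earlier results of these data known, and 2 genes of the lists of other genes are not reported here. Values per library are given for members called in any comparison with or without the block, for Ep300, Crebbp, Hdac1, Hdac2 and Hdac3, and for up to 2 abundant members of a class. From each list up to 4 called genes with the smallest adjusted p were eligible. The 5 motifs were chosen after the promoter sequences had been read. Figures were drawn with matplotlib.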

Additional observations from a re-analysis of the deposited data

Results flagged for a closer look

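In each condition of 4 libraries, the gap between the highest or lowest library and the nearest of the others was compared with the whole range, for 35 genes in 3 conditions. Of these 105 groups 4 had 1 library standing apart by Dixon's 95% limit, where chance alone gives about 1 in 20. Hdac2 had 266 CPM in LDHi+lactate replicate 2, against 304 to 312 CPM in the other 3 LDHi+lactate libraries. Hdac6 had 239 CPM in LDHi+lactate replicate 3, against 181 to 190 CPM. Sirt4 had 6.45 CPM in LDHi replicate 4, against 4.97 to 5.13 CPM. Sirt2 had 84.5 CPM in control replicate 1, against 70.3 to 72.1 CPM.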

How the results depend on the processing

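For LDHi against control, the count of 4 members called (2 higher, 2 lower) became 12 with the replicate block (7 higher, 5 lower) and 12 with DESeq2 and the replicate block, and it fell to 0 with only the groups compared in the fit, with replicates 3 and 4 alone and with replicates 1 and 2 alone. Leaving out single libraries gave 0 to 4 calls. For LDHi+lactate against control the 0 calls became 2 with DESeq2, 7 with the replicate block (3 higher, 4 lower) and 12 with DESeq2 and the replicate block (8 higher, 4 lower). The blocked counts were 6 to 9 for LDHi against control (12 with all replicates) and 0 to 4 for LDHi+lactate against control (7 with all replicates) when 1 replicate number was left out. For LDHi+lactate against LDHi the count stayed at 0, with the exception of 1 call, Kat6b, in the blocked fit with no filter on low counts. The 9 calls between the replicate pairs became 5 in the libraries of LDHi and control alone, and 9 to 11 when single libraries were left out. RLE size factors, library totals, both filters on low counts and the set as a term left the counts of the 3 comparisons without the block within 1.5 times. Of 1410 values of single genes under the alternatives 1280 kept their side of the threshold, 34 gained a call, 96 lost one and no called value changed its sign, and 43 values that were not called in 21 results did. Hdac9, the member with the lowest level per length, had a 95% interval of -1.25 to -0.13 on the log2 scale for LDHi against control.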
